A study of Drosophila melanogaster with 3 samples.

Results

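Serpins are proteins that trap and inactivate serine proteases, and the genes described here are those whose symbol in the count tables starts with Spn followed by a digit. This rule took 27 of 16509 genes by name alone, without any measured value. It leaves out nec, a serpin gene of the same cluster as Spn43Aa that carries its own name, Acp76A, a serpin gene of the male accessory gland, and Spn, which encodes the cytoskeletal protein Spinophilin and not a serpin.

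A serpin offers a reactive loop to its protease, and the cut loop swings into the body of the serpin and locks the protease in a dead complex. In flies the larval fat body secretes many serpins into the haemolymph, the insect blood, where protease cascades activate Toll signalling (through cleavage of the ligand Spz) and melanization (through cleavage of prophenoloxidases). Other serpins act inside the secretory pathway or are transferred in seminal fluid.

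RNA was counted in 3 libraries, 1 per genotype. These were Dcg > Hpo, in which the Dcg-Gal4 driver expresses the Hippo kinase Hpo, Dcg > Hpo-RNAi, in which it drives an RNAi against hpo, and the control Dcg/+, which carries the driver alone. Dcg-Gal4 is active in the fat body and is also known to act in blood cells, all 3 libraries share this driver, and each was made from pooled tissue. The deposited titles and the study's methods give larval fat tissue, whereas the extraction text among the labels names adult heads. The study places the sequenced fat bodies of Dcg > Hpo and Dcg/+ in the third larval instar, and the label of Dcg > Hpo-RNAi says larval. The kit (QuantSeq) primes at the poly(A) end and gives about 1 read per transcript, so levels in CPM (counts of a gene per 1000000 counts of its library) were compared between genes without division by length.

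Totals lay between 21918672 and 23524682 counts. The targeted gene hpo had 11568 counts in Dcg > Hpo, 182 in Dcg > Hpo-RNAi and 289 in Dcg/+. Of 7 fat body markers, 6 were found by symbol, none was at 0, and their sum was 183297 CPM in Dcg > Hpo, 178466 CPM in Dcg > Hpo-RNAi and 181550 CPM in Dcg/+. Markers of other tissues differed more between the libraries. The gut list summed to 626 CPM in Dcg > Hpo, 47.7 CPM in Dcg > Hpo-RNAi and 13.9 CPM in Dcg/+, the muscle list to 947, 41.5 and 100.1 CPM in the same order of libraries, and the testis list to 6.33, 305 and 260 CPM. The salivary gland list was the largest of these, at 24600 CPM in Dcg > Hpo, 665 CPM in Dcg > Hpo-RNAi and 50136 CPM in Dcg/+. By the rule given below, 6 of its 6 genes were called lower in Dcg > Hpo-RNAi than in Dcg/+, beside 9.09% of all measured genes. Fewer cells of a type and less RNA per cell cannot be told apart in such libraries.

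Serpin transcripts made up a small and similar part of each library. They held 0.0567% of the counts in Dcg > Hpo (95% exact binomial interval 0.0557 to 0.0576%), 0.0673% in Dcg > Hpo-RNAi (0.0662 to 0.0683%) and 0.0603% in Dcg/+ (0.0593 to 0.0613%). All intervals given here reflect counting error alone, because PCR copies are not separate molecules and no genotype has another library. The family was uneven. The 9 genes with a mean of at least 10 CPM over the libraries, called abundant below, held 95.4% of the serpin counts in Dcg > Hpo, 95.6% in Dcg > Hpo-RNAi and 96.9% in Dcg/+. The other 18 are called minor, and 11 of these had fewer than 10 counts in every library.

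Spn42Da was the most abundant serpin gene on average. It encodes a furin inhibitor of the secretory pathway, and alternative splicing gives its isoforms different reactive loops. Its level was 134 CPM in Dcg > Hpo, 194 CPM in Dcg > Hpo-RNAi and 183 CPM in Dcg/+, which placed it 625th, 423rd and 433rd among all genes of those libraries. The annotation gives it 11 transcripts with 6 coding lengths (374 to 424 residues), which a count per gene cannot separate. Spn43Ab, for which no role is given here, came next and was the first in the Dcg > Hpo library, with 136 CPM there, 112 CPM in Dcg > Hpo-RNAi and 109 CPM in Dcg/+. Spn27A, an inhibitor of prophenoloxidase activation in the haemolymph and of Easter in the embryo, had 82.7 CPM in Dcg > Hpo, 108 CPM in Dcg > Hpo-RNAi and 101 CPM in Dcg/+.
The next genes were less abundant. Spn42Dd, also known as Spn1 and described as a brake on Toll signalling, had 52.7 CPM in Dcg > Hpo, 91.3 CPM in Dcg > Hpo-RNAi and 77.9 CPM in Dcg/+. Spn88Eb had 49.2, 62.5 and 49.2 CPM in the same order of libraries, and Spn42Dc had 36.1, 38.5 and 36.0 CPM. Spn77Ba, an inhibitor of melanization in the tracheae, and Spn28Dc, a regulator of phenoloxidase activity after injury, ended the abundant group at 14.3 to 19.0 CPM and 9.49 to 11.3 CPM over the 3 libraries. In this order, neighbours with overlapping Poisson intervals were Spn43Ab and Spn42Da, Spn42Dd and Spn88Eb, and Spn88Ea and Spn77Ba in Dcg > Hpo. In both Dcg > Hpo-RNAi and Dcg/+ they were Spn43Ab and Spn27A. All other neighbours among the 9 abundant genes differed beyond these intervals.

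**Figure D1:**
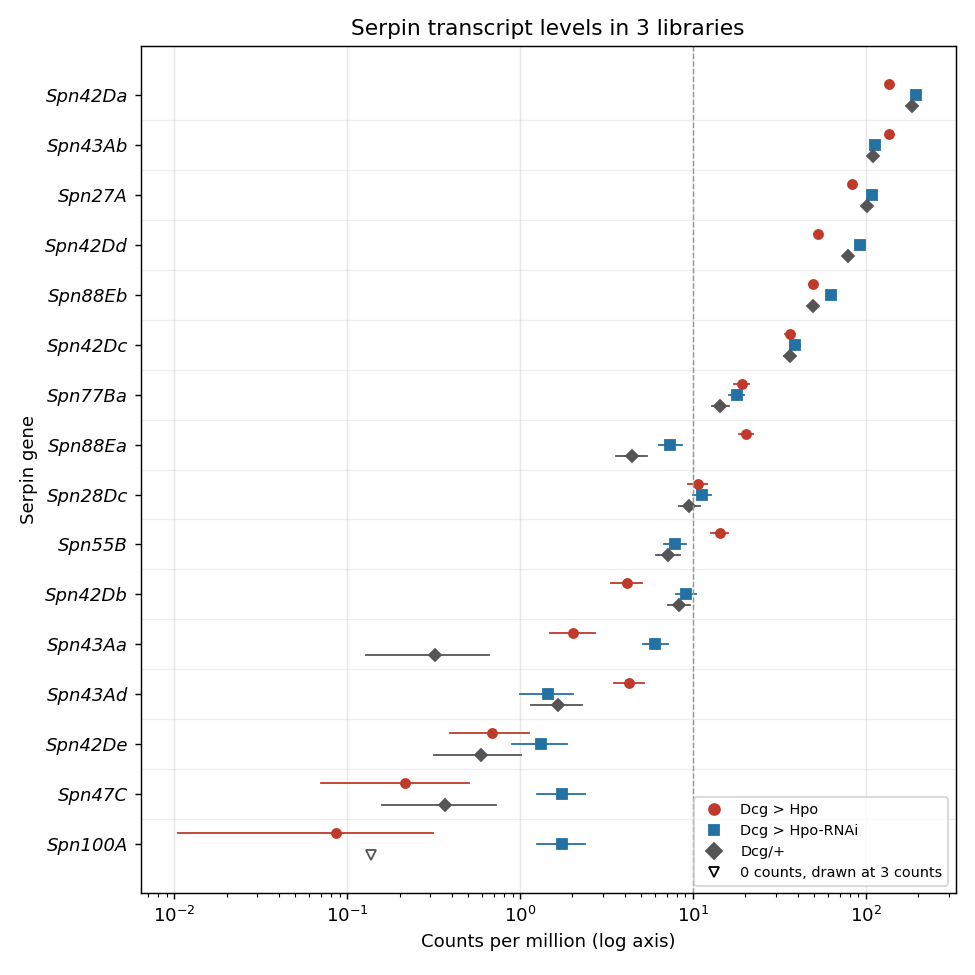
Level of the 16 serpin genes with at least 10 counts in any library, in CPM on a log axis, for Dcg > Hpo (circles), Dcg > Hpo-RNAi (squares) and Dcg/+ (diamonds). Lines are exact 95% Poisson intervals of the counts, the dashed line marks 10 CPM, the open triangle stands for 0 counts drawn at 3 counts, and the libraries lie farthest apart for Spn88Ea, Spn43Aa, Spn47C and Spn100A.

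The first comparison asks how serpin transcripts differed when Hpo was overexpressed. Of 14 serpin genes that reached 10 counts in either library, 3 were called higher in Dcg > Hpo than in Dcg/+ and 0 lower. A gene was called when its ratio of library shares was 2 or more, or 0.5 or less, and the exact 95% interval of that ratio (Clopper-Pearson, from how the gene's counts divide between both libraries) left out 1. Among all 11834 genes measured in this comparison, 18.2% were called higher and 22.8% lower, so the 21.4% of serpin genes called higher is near the background. Spn43Aa reached 10 counts through Dcg > Hpo alone, so it could enter only as higher. Where at least 50 counts were asked for, 2 of 12 genes were called higher, and no share over all genes was taken there. The median log2 ratio of the 14 genes was 0.18, beside 0.09 over all genes. No test between genotypes was possible with 1 library each.

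The called genes were Spn88Ea, Spn43Aa and Spn43Ad. Spn88Ea, known as Spn5 and described in Toll signalling and in wing expansion (FBgn0028984), had 469 counts in Dcg > Hpo, 173 in Dcg > Hpo-RNAi and 97 in Dcg/+. Its ratio in Dcg > Hpo over Dcg/+ was 4.56 (95% interval 3.66 to 5.74), so this library stood above both others. It was the only called gene among the 9 abundant ones, a share of 11.1% beside 19.0% of the 4326 genes at or above the same mean level. Its mean of 10.7 CPM passed the limit of 10 CPM through Dcg > Hpo alone, so its class depends on the value that was called. It had 20.2 CPM in Dcg > Hpo, 7.35 CPM in Dcg > Hpo-RNAi and 4.43 CPM in Dcg/+. A list of 5 trachea and epidermis genes, none at 0, summed to 27.7 CPM in Dcg > Hpo, 13.8 CPM in Dcg > Hpo-RNAi and 8.62 CPM in Dcg/+. This sum had the same order of libraries as Spn88Ea, but of its genes only vvl and Cht2 had that order themselves. The gut list given above (6 genes, of which 1 was at 0 in Dcg > Hpo, 1 in Dcg > Hpo-RNAi and 0 in Dcg/+) had that order in its sum and in every gene but Amy-p. The part of these tissues in the value of Spn88Ea was not tested.
Spn43Ad (FBgn0044011) had 99 counts in Dcg > Hpo, 34 in Dcg > Hpo-RNAi and 36 in Dcg/+, a ratio of 2.59 (1.76 to 3.91) over the control. The knockdown library and the control lay at about the same level. The muscle list given above (5 genes, none at 0) and the list of 8 blood cell genes (none at 0) at 556 CPM in Dcg > Hpo, 238 CPM in Dcg > Hpo-RNAi and 321 CPM in Dcg/+ were also highest in Dcg > Hpo, and their part in the value of Spn43Ad was not tested. PPO1 and PPO2 held most of the blood cell sum. Of its 8 genes, 2 were called higher in Dcg > Hpo than in Dcg/+, beside 18.2% of all measured genes. Pxn did not follow the sum, with 542 counts in Dcg > Hpo, 530 in Dcg > Hpo-RNAi and 600 in Dcg/+. Spn43Aa (FBgn0024294) had 47 counts in Dcg > Hpo, 142 in Dcg > Hpo-RNAi and 7 in Dcg/+, a ratio of 6.34 (2.85 to 16.6) in Dcg > Hpo over the control. Here both manipulated libraries stood above the control.

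A pair of genes lay at the edge of the call. Spn55B had 329 counts in Dcg > Hpo, 185 in Dcg > Hpo-RNAi and 157 in Dcg/+, and its ratio of 1.98 (1.63 to 2.41) in Dcg > Hpo over Dcg/+ was just under the threshold. Spn42Db had 96 counts in Dcg > Hpo, 214 in Dcg > Hpo-RNAi and 181 in Dcg/+, and its ratio of 0.5005 (0.387 to 0.645) was just outside it. With TMM scaling Spn42Db was called lower, at 0.443, and with median-of-ratios scaling at 0.457. Inside the threshold, the called gene nearest to it was Spn43Ad.
The remaining abundant genes stayed within 1.5-fold of the control. Spn42Dd was at 0.676 (0.627 to 0.728), Spn42Da at 0.735 (0.701 to 0.770) and Spn27A at 0.818 (0.769 to 0.870), with intervals below 1. Spn43Ab at 1.25 (1.18 to 1.31) and Spn77Ba at 1.33 (1.14 to 1.54) had intervals above 1, and those of Spn88Eb, Spn42Dc and Spn28Dc held 1. Summed over the 9 abundant genes the ratio was 0.925 (0.903 to 0.948), and over the 18 minor genes it was 1.38 (1.22 to 1.57). With TMM scaling the ratios of this comparison are lower throughout, for example 0.650 for Spn42Da and 1.10 for Spn43Ab.

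**Figure D2:**
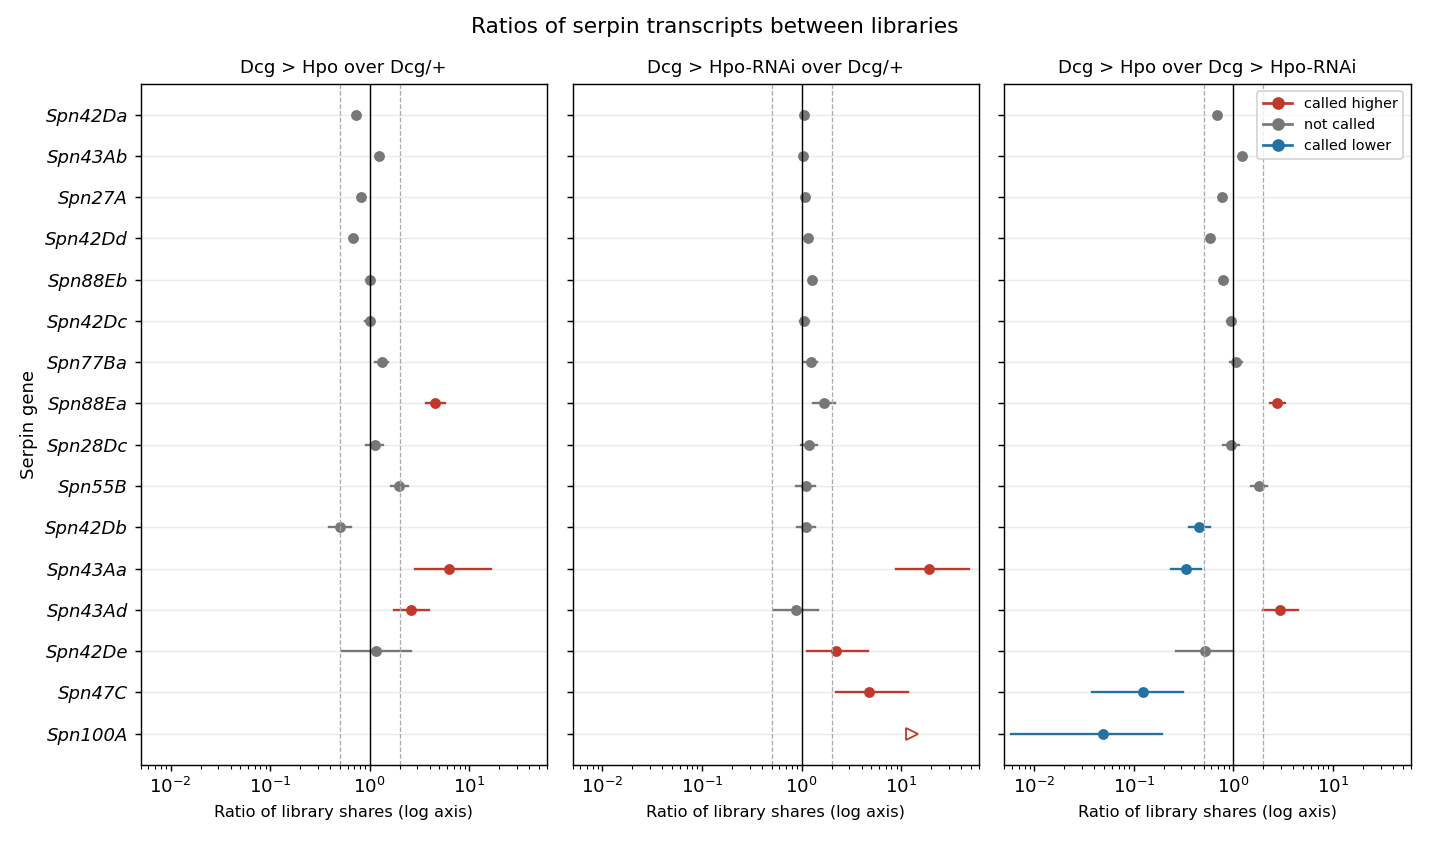
Ratio of library shares for the 16 serpin genes with at least 10 counts in any library, on a log axis, in Dcg > Hpo over Dcg/+ (left), Dcg > Hpo-RNAi over Dcg/+ (middle) and Dcg > Hpo over Dcg > Hpo-RNAi (right). Points carry exact 95% intervals, dashed lines mark 0.5 and 2, the open triangle is a lower bound against 0 counts, and a gene with under 10 counts in both libraries has no point. Spn88Ea is called higher on the left and right, Spn43Aa is called in every panel, and Spn100A lies farthest from 1 on the right, at 0.0494.

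In the second comparison, of hpo knockdown with the control, 4 of 16 measured serpin genes passed as higher in Dcg > Hpo-RNAi and 0 as lower. That is 25% beside 7.81% called higher and 9.09% called lower over all 11521 measured genes. All 4 are minor genes, and 0 of the 9 abundant genes was called, beside 8.84% of genes at or above the same mean level. The median log2 ratio was 0.24 over the 16 genes and 0.08 over all genes. Spn43Aa, Spn47C and Spn100A reached 10 counts through the knockdown library alone, so these 3 of the 4 could enter the count only as higher, and the share gives no support beyond each gene's own values.

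Spn43Aa differed most among the genes with counts in both libraries. Its 142 counts in Dcg > Hpo-RNAi against 7 in Dcg/+ gave a ratio of 18.9 (8.94 to 47.9). The interval is wide because the control count is small, and both ratios of this gene to the control use the same 7 counts. Spn100A had 41 counts in Dcg > Hpo-RNAi, 2 in Dcg > Hpo and 0 in Dcg/+. Against a floor of 3 counts in the control library it was at least 12.7-fold higher in Dcg > Hpo-RNAi, and with the counting error of both libraries the lower 95% limit of the ratio was 9.90. Spn47C had 41 counts in Dcg > Hpo-RNAi, 5 in Dcg > Hpo and 8 in Dcg/+, a ratio of 4.78 (2.21 to 11.8) over the control. The testis list given above (7 genes, of which 3 were at 0 in Dcg > Hpo and 0 in the other libraries) had the same order of libraries as Spn47C in its sum. Of its genes, 0 were called between Dcg > Hpo-RNAi and Dcg/+. In these 2 libraries aly (79 and 102 counts) and can (37 and 48) had the opposite order, and sa (48 and 45) was about level. The part of the testis in the value of Spn47C was not tested.
Spn42De had 31 counts in Dcg > Hpo-RNAi, 16 in Dcg > Hpo and 13 in Dcg/+, and its ratio of 2.22 (1.13 to 4.63) rests on few counts. No role is given here for these 4 genes. Where at least 50 counts in either library were asked for, Spn43Aa was the only call left. Spn88Ea, with a ratio of 1.66 (1.29 to 2.15) in Dcg > Hpo-RNAi over Dcg/+, was the abundant gene farthest from 1. For the other 8 abundant genes the ratios lay between 1.03 (Spn43Ab) and 1.27 (Spn88Eb), and their sum with Spn88Ea had a ratio of 1.10 (1.08 to 1.13).

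The third comparison sets the 2 manipulations against each other without the control library. In Dcg > Hpo over Dcg > Hpo-RNAi, 2 of 16 measured serpin genes were called higher and 4 lower, shares of 12.5% and 25% beside 19.4% and 24.3% of all 11906 measured genes. Among the 9 abundant genes 1 was called, beside 23.7% of genes at that level. This was Spn88Ea, which is in that class through Dcg > Hpo alone. The median log2 ratio was -0.37, beside 0.02 over all genes, and -0.093 over the 13 genes with at least 50 counts. Spn47C and Spn100A reached 10 counts through the knockdown library alone, so they could enter only as lower. With at least 50 counts 2 genes were called higher and 2 lower, without a share over all genes at that filter.

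Spn88Ea and Spn43Ad were higher in Dcg > Hpo, at 2.75 (2.30 to 3.29) and 2.95 (1.98 to 4.49). The 4 genes called lower were Spn42Db at 0.454 (0.353 to 0.581), Spn43Aa at 0.335 (0.236 to 0.469), Spn47C at 0.124 (0.0381 to 0.312) and Spn100A at 0.0494 (0.00579 to 0.190). In each of these the knockdown library held the highest count of the 3. Spn42Dd at 0.577 (0.537 to 0.619) and Spn42Da at 0.691 (0.660 to 0.723) were not called. The 6 genes of the list of haemolymph cascade serpins (Spn27A, Spn28Dc, Spn42Dd, Spn77Ba, Spn88Ea and Spn88Eb) had 1 call, Spn88Ea, in this comparison and 1, again Spn88Ea, in Dcg > Hpo over Dcg/+. They had 0 calls in Dcg > Hpo-RNAi over Dcg/+. Over all measured genes, 43.7% were called in either direction in this comparison, beside 16.7% of these 6 genes. The shares were 41.0% and 16.7% in Dcg > Hpo over Dcg/+, and 16.9% and 0% in Dcg > Hpo-RNAi over Dcg/+.

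Many serpin genes lie side by side, and the rule did not use position. On the build dm6, 11 of the 27 are on chromosome 2R, 8 on 2L, 4 on 3L and 4 on 3R. Spn42Da to Spn42De run from 6875906 to 6888262 on 2R, and Spn43Aa, Spn43Ab, Spn43Ad and nec from 7147692 to 7158241. Spn88Ea (3R, 15203069 to 15206447) and Spn88Eb (15206703 to 15208762) follow each other on the minus strand with 255 bases between them. Counts of neighbours can be set against each other within a library, which removes the scaling between libraries.
Spn88Ea had 0.410 counts per count of Spn88Eb in Dcg > Hpo (95% interval 0.368 to 0.457), 0.118 in Dcg > Hpo-RNAi (0.0999 to 0.138) and 0.0900 in Dcg/+ (0.0723 to 0.111). The Dcg > Hpo library thus differed from both others in the relative level of these neighbours, with intervals that do not meet. Spn43Ad, 95 bases from Spn43Ab, had 0.0314 counts per count of Spn43Ab in Dcg > Hpo (0.0254 to 0.0383), 0.0129 in Dcg > Hpo-RNAi (0.00894 to 0.0181) and 0.0151 in Dcg/+ (0.0105 to 0.0209). The order was the same against nec on its other side, at 0.0606, 0.0166 and 0.0190.
In the 42D cluster, Spn42Dd had 1.46 counts per count of Spn42Dc in Dcg > Hpo (1.34 to 1.60), 2.37 in Dcg > Hpo-RNAi (2.19 to 2.57) and 2.16 in Dcg/+ (1.99 to 2.36). The start of Spn42Dd shares 63 exonic bases with the 3′ end of Spn42Dc on the same strand, so reads of the 2 genes could be exchanged there. Spn42Db, 357 bases from Spn42Da, had 0.0308 counts per count of Spn42Da in Dcg > Hpo (0.0249 to 0.0377), 0.0468 in Dcg > Hpo-RNAi (0.0406 to 0.0537) and 0.0452 in Dcg/+ (0.0387 to 0.0525). Both clusters hold abundant and minor genes side by side.

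**Figure D3:**
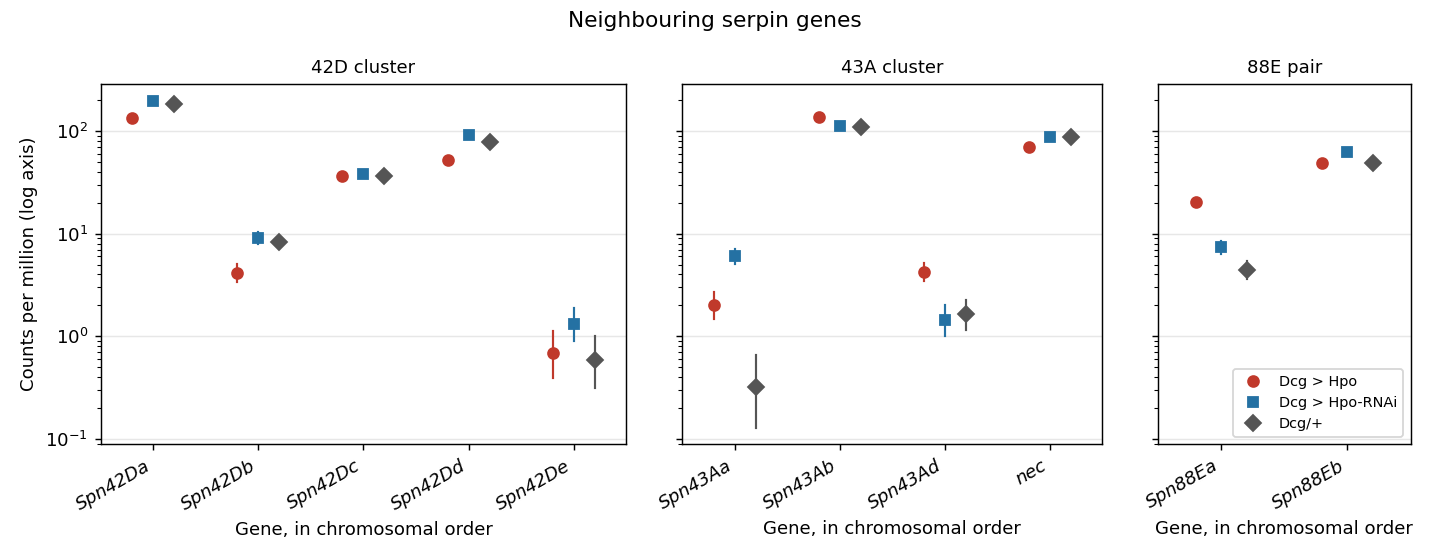
Levels of neighbouring serpin genes in CPM on a log axis, in chromosomal order, for the 42D cluster, the 43A cluster with nec and the 88E pair, in Dcg > Hpo (circles), Dcg > Hpo-RNAi (squares) and Dcg/+ (diamonds), with exact 95% Poisson intervals. Spn43Aa and Spn43Ad differ between libraries beside Spn43Ab and nec, which lie between 70.4 and 136 CPM, and Spn88Ea differs beside Spn88Eb.

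Overlapping genes bear on some of these counts. The span of 15 of the 27 serpin genes overlaps another annotated gene or transposon, and the use of strand in the counting is not given in the sources used here. Of 1873 pairs of overlapping genes on opposite strands with at least 10 counts, 12 had identical counts in all 3 libraries, and so did 22 of 610 such pairs on the same strand. The antisense RNA CR44169 covers the 3′ end of Spn42Da and had 2640 counts in Dcg > Hpo, 4065 in Dcg > Hpo-RNAi and 3524 in Dcg/+. That is 0.846, 0.889 and 0.880 counts per count of Spn42Da in the same order of libraries, so the level of Spn42Da is uncertain by that much. The same RNA covers the 3′ end of Spn42Db with 380 shared exonic bases, against 281 for Spn42Da, and had many more counts than Spn42Db in each library, so the level and the call of Spn42Db are uncertain too.
CG12828 runs towards Spn43Aa on the opposite strand and shares 116 exonic bases with it, its 3′ end included. It had 45 counts in Dcg > Hpo, 104 in Dcg > Hpo-RNAi and 5 in Dcg/+, the same order of libraries as Spn43Aa. Which of the 2 genes the reads came from cannot be told apart from these counts. Spn88Ea shares 6 exonic bases with CG42542, which covers its 3′ end on the opposite strand. CG42542 had 224 counts in Dcg > Hpo, 246 in Dcg > Hpo-RNAi and 180 in Dcg/+, an order unlike that of Spn88Ea. These are more counts than Spn88Ea had in Dcg > Hpo-RNAi (173) and Dcg/+ (97), so its level and calls carry an uncertainty of the same kind. Spn43Ad overlaps an intron of pk, which had 33 counts in Dcg > Hpo, 20 in Dcg > Hpo-RNAi and 5 in Dcg/+, fewer than Spn43Ad in each library. Spn47C overlaps only a transposon, which does not reach its 3′ end. Spn55B, Spn42De, Spn88Eb, Spn28Dc and Spn100A overlap no annotated gene.

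Serpin genes of the male accessory gland, whose products enter seminal fluid, were at or near 0. Spn28B, Spn28Da, Spn28Db, Spn38F, Spn53F, Spn75F and Spn77Bc had 0 counts in all 3 libraries, and a count of 0 allows up to 3 counts, or 0.137 CPM in Dcg/+. Of the 5 genes listed as serpins of the male accessory gland (Spn28F, Spn38F, Spn53F, Spn75F and Spn77Bc), only Spn28F was counted at all, with 0 counts in Dcg > Hpo, 0 in Dcg > Hpo-RNAi and 5 in Dcg/+. Acp76A, of the same gland, also had 0 counts throughout. Of 8 markers of this gland, 6 were at 0 in Dcg > Hpo, 6 in Dcg > Hpo-RNAi and 5 in Dcg/+. The 8 markers summed to 1.38 CPM in Dcg > Hpo, 2.34 CPM in Dcg > Hpo-RNAi and 7.07 CPM in Dcg/+. Most of this was Acp63F, with 31, 51 and 136 counts in the same order of libraries, and Acp36DE had 0, 4 and 18. Spn31A had 1 count in Dcg > Hpo and none elsewhere, Spn77Bb had 3 in Dcg > Hpo-RNAi and none elsewhere, and Spn85F had 9 counts in Dcg > Hpo, 5 in Dcg > Hpo-RNAi and 5 in Dcg/+. Spn77Bb starts 835 bases behind Spn77Ba, which had 441 counts in Dcg > Hpo, 418 in Dcg > Hpo-RNAi and 314 in Dcg/+.

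Among the genes of the cascades that serpins restrain, SPE, spz, Tl and the prophenoloxidases differed between the libraries. Of the 15 measured genes of a list of 17 Toll and melanization genes, nec included, 5 were called higher in Dcg > Hpo than in Dcg/+ and 0 lower (median log2 ratio 0.42). In Dcg > Hpo-RNAi over Dcg/+, 1 of 12 passed as higher and 2 as lower (median 0.047), and in Dcg > Hpo over Dcg > Hpo-RNAi 7 of 15 passed as higher and 1 as lower (median 0.71). Over all genes 18.2% were higher and 22.8% lower in the first comparison (median 0.09), 7.81% and 9.09% in the second (0.08), and 19.4% and 24.3% in the third (0.02). Through Dcg > Hpo alone, ea (30 counts there, 3 in Dcg > Hpo-RNAi and 1 in Dcg/+) and PPO3 (74, 6 and 7) reached 10 counts. So did ndl (20, 4 and 8), which was called in the third comparison only. In the comparisons of Dcg > Hpo these genes could enter only as higher. With at least 50 counts, 4 of 13 were called higher in the first comparison and 5 of 13 in the third. No share over all genes was taken at that filter. SPE, the protease that cleaves Spz, had 1011 counts in Dcg > Hpo, 90 in Dcg > Hpo-RNAi and 208 in Dcg/+. It was called higher in the first library, at 4.59 (3.95 to 5.35), and lower in the second, at 0.403 (0.311 to 0.519), both over the control. The ligand gene spz had 969 counts in Dcg > Hpo, 279 in Dcg > Hpo-RNAi and 685 in Dcg/+, with ratios of 1.33 (1.21 to 1.47) and 0.379 (0.329 to 0.437) over the control. The Toll gene Tl had 94 counts in Dcg > Hpo, 58 in Dcg > Hpo-RNAi and 19 in Dcg/+. It was called higher over the control in both, at 4.67 (2.83 to 8.10) and 2.84 (1.67 to 5.06). In Dcg > Hpo-RNAi it was the only gene of the list called higher over the control.
Upstream of SPE the values were closer together. For grass, a protease of the recognition branch, the ratio to the control was 0.975 (0.916 to 1.04) in Dcg > Hpo, while in Dcg > Hpo-RNAi it was 1.42 (1.34 to 1.503). modSP, which starts that branch, was at 0.692 (0.599 to 0.798) and 1.08 (0.951 to 1.23). nec, the serpin that holds back Toll activation through the protease Psh, had 1635 counts in Dcg > Hpo, 2046 in Dcg > Hpo-RNAi and 1893 in Dcg/+, and was not called in any comparison.

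Among melanization genes, PPO2, a prophenoloxidase of crystal cells, had 5241 counts in Dcg > Hpo, 2458 in Dcg > Hpo-RNAi and 2455 in Dcg/+, and was called higher in Dcg > Hpo at 2.01 (1.92 to 2.11). This call is at the edge and was lost with TMM, median-of-ratios and fat body marker scaling, which leave 4 cascade genes called higher in place of 5. PPO1, its partner in the same cells, had a ratio to the control of 1.68 (1.60 to 1.75) in Dcg > Hpo, against 0.557 (0.526 to 0.590) for Dcg > Hpo-RNAi. Both genes are among the 8 blood cell markers, and the part of blood cells in these values was not tested. Sp7, a protease that activates prophenoloxidase, had 2580 counts in Dcg > Hpo, 5334 in Dcg > Hpo-RNAi and 2884 in Dcg/+. It was at 0.844 (0.800 to 0.891) and 1.72 (1.65 to 1.80) over the control, and was called lower in Dcg > Hpo over Dcg > Hpo-RNAi, at 0.490 (0.467 to 0.514). Hayan, a protease of both cascades, had a ratio to the control of 1.19 (1.12 to 1.27) in Dcg > Hpo, beside 1.71 (1.62 to 1.81) for Dcg > Hpo-RNAi. Like Spn27A, both proteases had their highest count in the knockdown library.

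Of 8 other secreted inhibitors and related proteins, nec among them, Timp was the only call in Dcg > Hpo over Dcg/+ (higher), Tep1 the only call in Dcg > Hpo-RNAi over Dcg/+ (lower), and Tep1 again in Dcg > Hpo over Dcg > Hpo-RNAi (higher). That is 12.5% of the list each time, beside 41.0%, 16.9% and 43.7% of all measured genes called in either direction in these comparisons. Tep1, a thioester protein related to complement and alpha-macroglobulin, had 171 counts in Dcg > Hpo, 43 in Dcg > Hpo-RNAi and 211 in Dcg/+, with a ratio of 0.190 (0.133 to 0.265) in Dcg > Hpo-RNAi over the control. Cys, a cystatin that inhibits cysteine proteases, had ratios to the control of 1.72 (1.66 to 1.78) for Dcg > Hpo and 0.965 (0.926 to 1.01) for Dcg > Hpo-RNAi. Tep4, another thioester protein, was at 1.43 (1.36 to 1.502) and 0.786 (0.742 to 0.833) in the same order. Mcr, of the same protein family, was at 1.49 (1.22 to 1.83) and 1.33 (1.08 to 1.64). Timp, the inhibitor of matrix metalloproteases, had 81 counts in Dcg > Hpo, 44 in Dcg > Hpo-RNAi and 24 in Dcg/+, a ratio of 3.18 (1.998 to 5.25) in Dcg > Hpo over the control.
Fur1 encodes a furin, the kind of protease that Spn42Da inhibits. It had 1544 counts in Dcg > Hpo, 2366 in Dcg > Hpo-RNAi and 1464 in Dcg/+, with ratios of 0.995 (0.926 to 1.07) and 1.51 (1.41 to 1.61) over the control. The other convertases had few counts, with 68, 11 and 34 for Fur2 and 38, 2 and 15 for amon in the same order of libraries. Fur2 and amon were called lower in Dcg > Hpo-RNAi and amon higher in Dcg > Hpo, both over the control. In Dcg > Hpo over Dcg > Hpo-RNAi both were called higher, at 6.26 (3.29 to 13.1) and 19.2 (4.97 to 165). With under 10 counts in the knockdown library, amon could enter its comparisons in these directions only. Over all genes, 9.09% were called lower in the knockdown over the control. The shares called higher were 18.2% in Dcg > Hpo over the control and 19.4% over the knockdown.

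**Figure D4:**
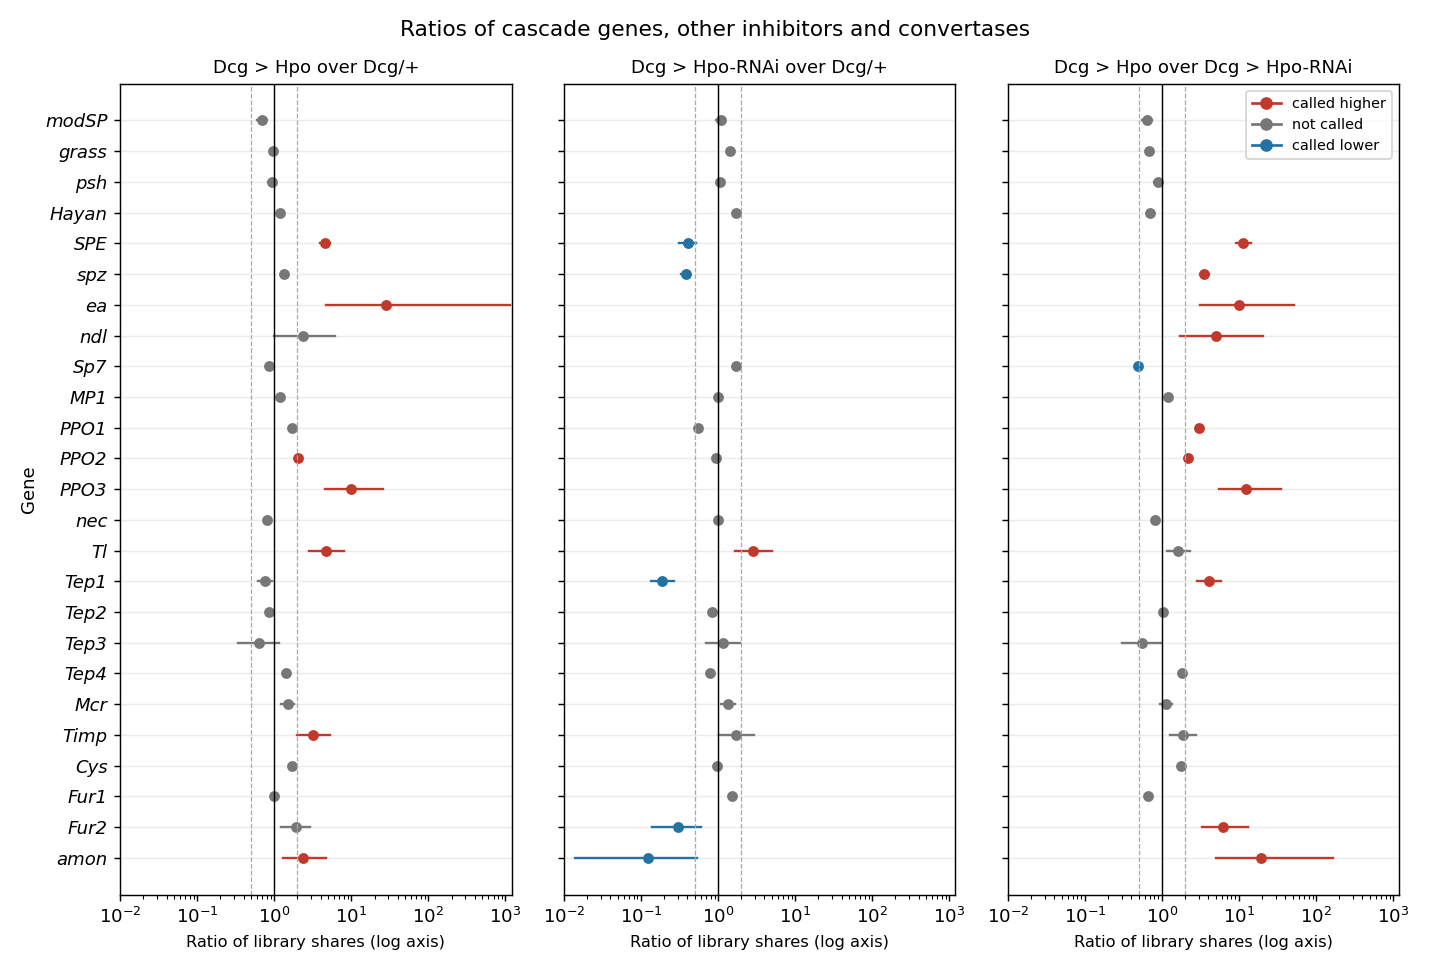
Ratio of library shares on a log axis for genes of the Toll and melanization cascades, other secreted inhibitors and convertases, in Dcg > Hpo over Dcg/+ (left), Dcg > Hpo-RNAi over Dcg/+ (middle) and Dcg > Hpo over Dcg > Hpo-RNAi (right), with exact 95% intervals. A gene with under 10 counts in both libraries of a panel has no point. SPE lies at 4.59 on the left and 0.403 in the middle, and nec lies within 1.5-fold of 1 in every panel.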

How the data were processed

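The authors deposited raw read counts per gene symbol, whole numbers without a filter on low counts, for 16509 genes in each of 3 libraries. Per the labels and the study's methods, RNA was extracted from pooled tissue, libraries were made with the Lexogen QuantSeq kit, and the service company ebiogen did the analysis. The submitters' processing notes name dm6 as build. Which aligner and counter were used, and whether counting was stranded, is not given in the sources used here. Groups follow the genotype labels, with 1 library each, so no test between genotypes was made and values measure these libraries only.

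Counts were divided by library totals. Ratios carry exact Clopper-Pearson 95% intervals (scipy 1.17.1), counts carry exact Poisson 95% intervals, and both cover counting error only. Log2 ratios used counts scaled to a common total plus a pseudocount of 1. Genes needed 10 counts in either library of a comparison to be measured. A count of 0 was set to 3 counts for bounds. All genes were run through the same steps, which were tested on simulated data. Serpin genes with at least 100 counts in any library are given with their counts, and minor genes that were called are added. Of the other lists, the 8 genes farthest from 1 per comparison with at least 100 counts are named. Added after their values were seen were nec, Timp, Fur2, amon, ea, PPO3, ndl, Tl, Acp76A and the genes that overlap a serpin gene. The members and lists were chosen with earlier results of these data known. All 27 symbols matched an Ensembl annotation with dm6 coordinates. Symbols on more than 1 row (17, none a serpin) were kept as separate rows.

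Alternatives were TMM (edgeR 4.0.16), median-of-ratios (DESeq2 1.42.0) and quantile normalization (limma 3.58.1), filters at 1 count and at 50 counts, calls at 1.5-fold or 3-fold, and pseudocounts of 0.5 and 5. Scaling to the fat body markers and leaving out overlapping genes were chosen after the data were seen.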

Additional observations from a re-analysis of the deposited data

How the results depend on the processing

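No paired analysis was possible because each genotype has 1 library. Under other scalings, 144 ratios were taken of the 12 serpin genes with at least 100 counts in any library. Of these, 0 reversed a call and 3 changed one, all of Spn42Db in Dcg > Hpo over Dcg/+. It was called lower with TMM (0.443), median-of-ratios (0.457) and fat body marker scaling (0.496), each of which gives 1 serpin gene called lower in place of 0. The called genes Spn43Ad, Spn42De, Spn47C and Spn100A had fewer counts and are not among the 12. Over all serpin genes, TMM called 5 lower in Dcg > Hpo over Dcg > Hpo-RNAi in place of 4. Quantile normalization, called by the ratio without an interval, gave 4 higher in Dcg > Hpo over Dcg/+ in place of 3. Scalings moved the median log2 ratio of all genes in Dcg > Hpo over Dcg/+ to -0.081 (TMM) and -0.035 (median-of-ratios), beside 0.094 with library totals, and that of the serpin genes to 0.012 and 0.057, or 0.082 with at least 50 counts. With that filter, 1 serpin gene was called higher in Dcg > Hpo-RNAi over Dcg/+, 2 were called lower in Dcg > Hpo over Dcg > Hpo-RNAi (median -0.093), and convertase calls were 0 higher, 0 lower and 1 higher in the 3 comparisons. Without genes that overlap another, serpin calls were 0 higher in Dcg > Hpo over Dcg/+ (of 4), 2 higher in Dcg > Hpo-RNAi over Dcg/+ (of 5, median 0.35), and 0 higher and 1 lower in Dcg > Hpo over Dcg > Hpo-RNAi (of 5), since Spn88Ea, Spn43Aa, Spn43Ad and others are left out. At 1.5-fold, 1 serpin gene was called lower in Dcg > Hpo over Dcg/+, with 2 other inhibitors and 2 convertases higher. In Dcg > Hpo-RNAi over Dcg/+ 3 cascade genes, 1 inhibitor and 1 convertase were higher, and in Dcg > Hpo over Dcg > Hpo-RNAi 4 inhibitors were higher and 2 cascade genes, 1 inhibitor and 1 convertase lower. At 3-fold, serpin calls in Dcg > Hpo over Dcg > Hpo-RNAi were 0 higher and 2 lower, cascade calls 0 lower, those in Dcg > Hpo-RNAi over Dcg/+ 0 higher and 0 lower, and convertases 0 higher in Dcg > Hpo over Dcg/+. Quantile normalization called 2 convertases higher in Dcg > Hpo over Dcg/+ and 2 inhibitors higher in Dcg > Hpo over Dcg > Hpo-RNAi. Without a filter 1 cascade gene was called lower in Dcg > Hpo over Dcg/+. Without its most abundant gene the serpin share was 0.0431% in Dcg > Hpo, 0.0478% in Dcg > Hpo-RNAi and 0.0420% in Dcg/+, and of totals without the 10 most abundant genes it was 0.0869%, 0.109% and 0.0953%. Calls of Spn42De, Spn47C and Spn100A rest on 41 counts or fewer.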
